A study of Rattus norvegicus with 6 samples.

Results

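Gabra2, Gabra3, Gabra4, Gabra5, Gabrb1, Gabrb2 and Gabrg1 encode subunits of the GABA-A receptor, and their transcripts were followed in rat primary motor neuron cultures after a short exposure to camptothecin. The 7 genes were taken by symbol from 14506 genes that the platform annotation names with a single symbol. Each was read by 1 transcript cluster, the set of probes that the array design assigns to a transcript. The rule did not use the measured values, although earlier results of these data were known when the genes were chosen.

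The cultures came from rat embryos at embryonic day 13.5 and were kept for 2 days in vitro. The 3 camptothecin cultures received 1 microM camptothecin for 2 h at the end of that time, and the 3 DMSO cultures an equivalent volume of the solvent for the same time. Total RNA of each sample was hybridised to an Affymetrix Rat Gene 1.0 ST array. The labels speak of biological replicates and do not say what separated them, so the p-values cover only the spread among these arrays, which may be technical. No genotype, strain or sex is given in the labels.

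GABA-A receptors are pentameric chloride channels opened by the transmitter GABA, and most hold alpha, beta and gamma subunits. Alpha and beta subunits together form the GABA binding sites, a gamma subunit is needed for classical benzodiazepine sensitivity, and the alpha subunit sets much of the affinity and location of the receptor. In embryonic spinal neurons, which hold much intracellular chloride, opening these channels usually depolarises the cell. Camptothecin traps topoisomerase 1 on DNA, which stalls RNA polymerase II most often within long genes, and several GABA-A subunit genes are long.

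The medians of the deposited log2 values were 6.31 to 6.33 on camptothecin arrays and 6.22 to 6.28 on DMSO arrays, without overlap. Arrays of a treatment correlated at 0.992 to 0.995 (Pearson's r), and arrays of different treatments at 0.983 to 0.985. Of 12 measured motor neuron markers, Isl1, Isl2, Slc18a3, Slc5a7 and Prph lay below 6.28, the median of all cluster means, while Nefl and Nefm averaged 10.38 and 10.98 with camptothecin and 10.24 and 10.57 with DMSO. The mean of that marker list was 7.18 to 7.31 on camptothecin arrays and 7.20 to 7.22 on DMSO arrays. Of 9 inhibitory interneuron markers 4 fell and 0 rose, beside 9.35% and 11.3% of all genes. The median change of that list was 0.04, and its mean value was 7.54 to 7.69 on camptothecin arrays and 7.87 to 7.95 on DMSO arrays. The 4 that fell have genomic spans of 40.8 to 91.2 kb, and 16.2% of all genes of 30 to 100 kb fell. The part of interneurons in the results below was not tested, and fewer cells of a type and less RNA per cell cannot be told apart in bulk RNA.

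The subunit transcripts changed little after 2 h of camptothecin. Of the 7 genes, 1 rose (Gabra3), 0 fell and 6 did not pass limma's test at an adjusted p under 0.05, which was adjusted over all 29214 clusters. At an unadjusted p under 0.05 the count was 4 of 7, beside 35.5% of all genes. Among all 14506 genes 11.3% rose and 9.35% fell, so the count for the subunits lies near the background. The median log2 change was 0.07 for the 7 genes and 0.06 for all genes. The mean value of the 7 genes was 8.84, 8.92 and 8.92 on camptothecin arrays and 8.91, 8.87 and 8.80 on DMSO arrays, which overlap (exact permutation p = 0.5, two-sided; 0.1 is the smallest that 3 arrays against 3 allow). All 7 lay above the median of all cluster means, at 7.65 to 9.82 over the 6 arrays. Values of different genes are not compared as levels, because each is read by its own probes.

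**Figure D1:**
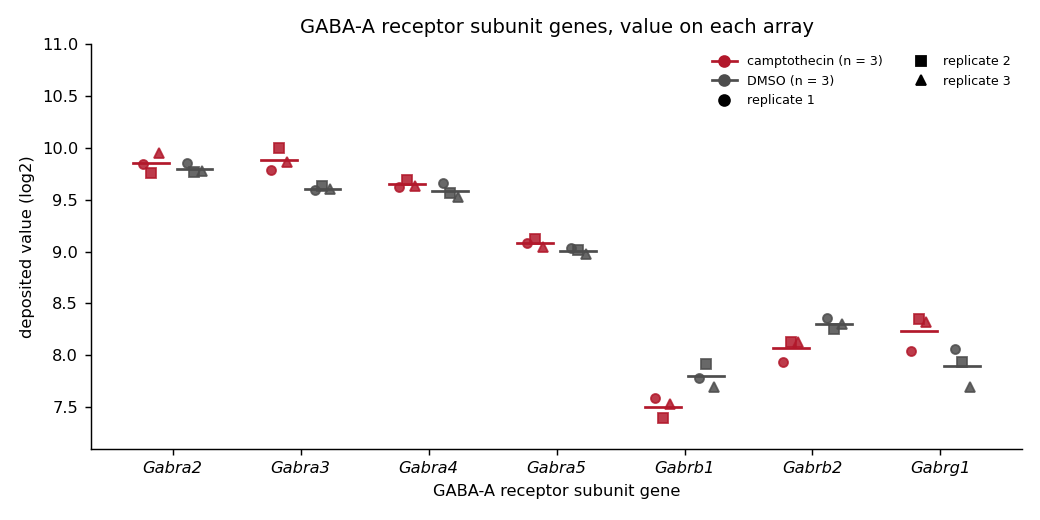
Deposited log2 values of the 7 subunit genes on each array (points; marker shape gives the replicate number) with the treatment means (lines), camptothecin left of DMSO. The camptothecin points of Gabra3 lie above, and those of Gabrb1 and Gabrb2 below, all 3 DMSO points of the same gene.

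The alpha subunit gene that rose was Gabra3, which encodes a subunit common in embryonic brain and spinal cord and in monoaminergic neurons of the adult. Gabra3 read 9.79, 10.00 and 9.86 with camptothecin, against 9.59, 9.63 and 9.60 with DMSO. All camptothecin arrays were above all DMSO arrays, and the spread was wider with camptothecin (SD 0.11) than with DMSO (SD 0.02). The change was 0.28 on the log2 scale (SE 0.08, 95% interval 0.10 to 0.45, n = 3 per treatment, adjusted p = 0.0453), or 21.2% higher. It lay close to the threshold. The call was kept without camptothecin replicate 1 (adjusted p = 0.0468) and lost when any other array was left out, with changes of 0.22 to 0.32 and adjusted p up to 0.124. It was also lost with arrays centred on their medians (0.21, adjusted p = 0.114) and on the ribosomal protein genes (0.01, adjusted p = 0.876).

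The other alpha subunit genes did not pass the test, and their 95% intervals lay between -0.13 and 0.22. Gabra2 encodes a subunit found at perisomatic and axon initial segment synapses of forebrain neurons, and early in the spinal cord. It read 9.84, 9.76 and 9.95 with camptothecin and 9.85, 9.77 and 9.78 with DMSO, a change of 0.05 (95% interval -0.13 to 0.22, adjusted p = 0.705). Its camptothecin and DMSO values overlap. Gabra4, whose subunit in adult forebrain often joins the delta subunit in receptors outside synapses, read 9.62, 9.69 and 9.63 with camptothecin and 9.66, 9.56 and 9.53 with DMSO. Those values overlap too, and the change was 0.07 (95% interval -0.09 to 0.22, adjusted p = 0.565). Gabra5 encodes a subunit of largely extrasynaptic receptors that is best known from the hippocampus. It read 9.08, 9.12 and 9.04 with camptothecin and 9.03, 9.02 and 8.98 with DMSO, so the treatments did not overlap, by a gap smaller than the SD of either (0.04 with camptothecin and 0.03 with DMSO). The change of Gabra5 was 0.07 (95% interval -0.08 to 0.21, adjusted p = 0.515). The sign of Gabra2, Gabra4 and Gabra5 turned when ribosomal protein genes were used to centre the arrays (-0.21, -0.20 and -0.20), and that of Gabra5 alone then came with an adjusted p under the threshold (0.0478).

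Both beta subunit genes were lower with camptothecin on every array, and neither passed the test. Beta subunits carry a face of the GABA binding site and bind several anaesthetics, and Gabrb1 and Gabrb2 encode the subunits beta1 and beta2. Gabrb1 read 7.59, 7.40 and 7.53 with camptothecin, against 7.78, 7.92 and 7.70 with DMSO. The change was -0.29 (SE 0.09, 95% interval -0.50 to -0.09, adjusted p = 0.0595), or -18.3%. Gabrb2, whose subunit is widespread in the adult brain, read 7.94, 8.13 and 8.13 with camptothecin and 8.36, 8.25 and 8.30 with DMSO. Its change was -0.24 (SE 0.08, 95% interval -0.43 to -0.05, adjusted p = 0.0828), or -15.3%. Both genes stayed below 0 in all 17 alternatives. Gabrb1 passed in 7 of them and Gabrb2 in 4, among them the centrings on medians and on ribosomal protein genes. There Gabrb1 changed by -0.36 and -0.55 and Gabrb2 by -0.31 and -0.50. Those centrings shifted the median change of all genes by -0.07 and -0.26, and 11.1% and 32.2% of all genes then fell. A gene already below 0 passes more readily after such a shift.

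Gabrg1 encodes a gamma subunit with low benzodiazepine sensitivity that is also known from glia. It read 8.04, 8.35 and 8.32 with camptothecin and 8.06, 7.94 and 7.70 with DMSO. The camptothecin replicate 1 value lay just under the DMSO replicate 1 value, so the treatments overlap. Gabrg1 had the largest change in size among the 7 genes, 0.34, and also the largest error (SE 0.12, 95% interval 0.04 to 0.63, adjusted p = 0.11). The SD of Gabrg1 was 0.17 with camptothecin and 0.18 with DMSO. Over the 6 arrays, the genes with the nearest profile to Gabrg1 were Lman2l, Aplp1 and Snx15, with root mean square differences of 0.013, 0.046 and 0.048 on the log2 scale and Pearson's r of 0.999, 0.978 and 0.98. Lman2l encodes a lectin of the early secretory pathway, Aplp1 a relative of the amyloid precursor protein and Snx15 a sorting nexin. These 3 were picked from all genes on 6 points that share 2 treatments, and none passed the test (changes of 0.36, 0.36 and 0.39).

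**Figure D2:**
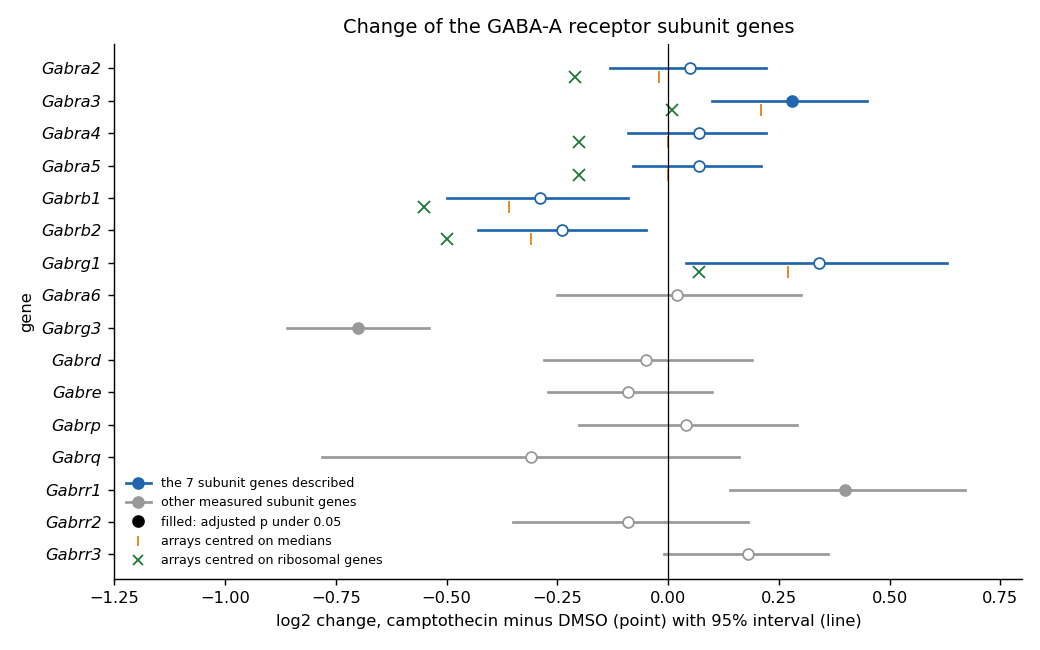
Log2 change, camptothecin minus DMSO, of the 7 subunit genes (blue) and the 9 other measured subunit genes (grey) with 95% intervals (lines) and, for the 7 genes, the change after either centring of the arrays (small marks under the points). Gabra3, Gabrg3 and Gabrr1 are filled because they passed the test, and the beta genes lie left of 0 under each scaling.

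Of the 7 genes, all 3 camptothecin values were above all DMSO values for 2 (Gabra3 and Gabra5) and below them for 2 (Gabrb1 and Gabrb2). The same held for 27.1% and 15.5% of all genes, and for 10.4% and 47.9% of genes whose genomic span is 100 kb or more. Centring on the ribosomal protein genes shifts the median change of all genes by -0.26, so signs of changes this small depend on the scale, whereas a difference between genes on the same array does not. Within arrays, the mean of the 4 alpha genes minus the mean of the 2 beta genes was 1.82, 1.88 and 1.79 with camptothecin, against 1.46, 1.41 and 1.47 with DMSO. The camptothecin arrays were all higher, by 0.38 on the log2 scale. With any 1 array left out this difference was 0.35 to 0.40. The size of such a difference on a single array has no meaning of its own, and only its shift between treatments is read here. The split was chosen after the beta genes had been seen to be the only ones of the 7 with changes below 0, which fixes the direction of this difference, so it is a description with no test.

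**Figure D3:**
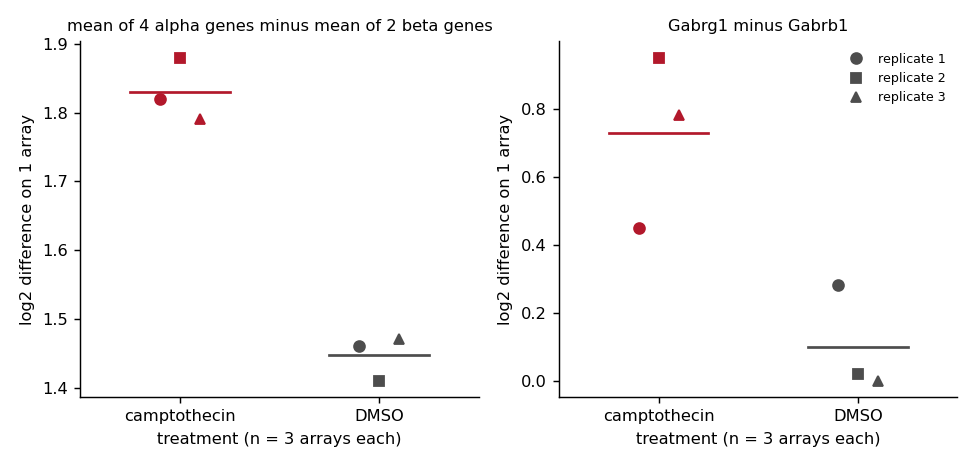
Log2 difference on each array between the mean of the 4 alpha and the mean of the 2 beta genes (left) and between Gabrg1 and Gabrb1 (right), for camptothecin and DMSO, with means as lines; the axes do not start at 0, and both differences were chosen after the values were seen. In both panels all camptothecin points lie above all DMSO points, by 0.38 and 0.63 on average.

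On the deposited scale, genes of long genomic span had a median change below 0 with camptothecin, while the 3 alpha genes of such span had changes above 0. These signs depend on the scale: with ribosomal centring Gabra3, Gabra2 and Gabra5 changed by 0.01, -0.21 and -0.20. By RefSeq annotation of the rat assembly GRCr8 the spans are 484 kb for Gabrb1, 242 kb for Gabra3, 220 kb for Gabrb2, 136 kb for Gabra2, 113 kb for Gabra5, 76.9 kb for Gabra4 and 71.4 kb for Gabrg1. Of these genes 5 span 100 kb or more, and on the deposited scale 1 of them rose (Gabra3) and 0 fell. Among all 1632 genes of that span 1.84% rose and 34.9% fell. The Gabra3 call was lost in 10 of 17 alternatives. With ribosomal centring Gabrb1, Gabrb2 and Gabra5 fell (-0.55, -0.50 and -0.20), as did 32.2% of all genes. Gabrg3, a measured subunit gene outside this set, spans 623 kb and fell on the deposited scale (-0.70, limma's adjusted p = 0.000921). The median change of the 5 genes was 0.05, against -0.14 for all genes of 100 kb or more. In the bin of 100 to 300 kb, 97.8% of 1257 genes had a lower change than Gabra3, 80.0% a lower one than Gabra5 and 78.0% a lower one than Gabra2. In the same bin 39.0% had a lower change than Gabrb2, and 41.1% of the 375 genes of 300 kb or more had a lower one than Gabrb1. Both beta genes lay between the quartiles of their bins (-0.44 and 0.03 for 100 to 300 kb, -0.48 and 0.02 for 300 kb or more). Among genes of 30 to 100 kb, 95.3% had a lower change than Gabrg1 and 63.6% a lower one than Gabra4. These ranks describe single genes, and centring whole arrays shifts all genes alike and leaves them as they are.

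**Figure D4:**
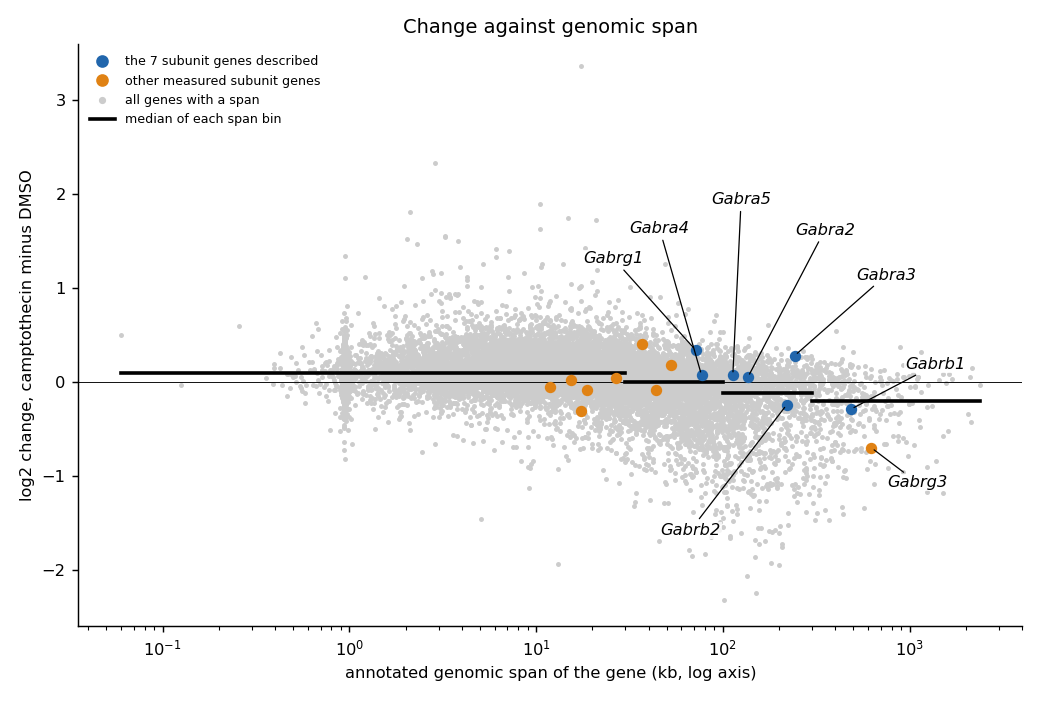
Log2 change, camptothecin minus DMSO, against the annotated genomic span in kb (log axis) for all genes with a span (grey), the 7 subunit genes (blue, labelled) and the 9 other subunit genes (orange, Gabrg3 labelled), with the median of each span bin as a black line. The bin medians are 0.10, 0.00, -0.12 and -0.20 from short to long, and Gabra3, Gabra5 and Gabra2 lie above the line of their bin.

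GABA-A subunit genes lie in clusters, and the changes of neighbours are given side by side without a test. On chromosome 14 the order in GRCr8 is Gabrb1, Gabra4, Gabra2 and Gabrg1, with 1 other protein-coding gene between Gabra4 and Gabra2, and the changes in that order were -0.29, 0.07, 0.05 and 0.34. Within arrays, Gabrg1 minus Gabrb1 was 0.45, 0.95 and 0.78 with camptothecin, against 0.28, 0.02 and 0.00 with DMSO. These are the ends of the cluster and also the highest and the lowest change among the 7 genes, so the direction follows from the choice and no test is given. Gabra4 and Gabra2, in the middle, had nearly equal changes. On chromosome 1 Gabra5 (0.07) neighbours Gabrg3, which encodes the gamma3 subunit and had the change largest in size among the 16 measured subunit genes. Gabrg3 read 8.85, 8.74 and 8.76 with camptothecin, against 9.42, 9.50 and 9.52 with DMSO, and it fell (log2 change -0.70, SE 0.07, limma's adjusted p = 0.000921). It spans 623 kb, and 15.5% of genes of 300 kb or more had a lower change. On chromosome X Gabra3 (0.28) lies between Gabre (-0.09) and Gabrq (-0.31), with 1 protein-coding gene on either side, and neither neighbour passed the test.

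The stretches before the annotated starts of 3 of the genes are shown because Gabra3 was the gene that rose and the beta genes, which did not pass the test, had lower values on every camptothecin array. The RefSeq promoter table for GRCr8 held 6 of the 7 genes, and each stretch is the 250 bases before the start, written 5′ to 3′ on the gene's strand. Capitals mark the searched motifs.
Gabrb1, chr14:36902894-36903143, minus strand: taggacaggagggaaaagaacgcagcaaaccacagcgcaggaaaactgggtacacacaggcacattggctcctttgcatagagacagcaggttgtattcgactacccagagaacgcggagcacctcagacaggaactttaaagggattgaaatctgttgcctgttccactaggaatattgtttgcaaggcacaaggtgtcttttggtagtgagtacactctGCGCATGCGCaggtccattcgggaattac
Gabrb2, chr10:27439543-27439792, plus strand: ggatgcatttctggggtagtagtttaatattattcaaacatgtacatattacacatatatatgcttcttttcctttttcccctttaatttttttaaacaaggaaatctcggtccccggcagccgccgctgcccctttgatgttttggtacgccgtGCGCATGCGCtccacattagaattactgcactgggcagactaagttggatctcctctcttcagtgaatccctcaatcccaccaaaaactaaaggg
Gabra3, chrX:155543871-155544120, minus strand: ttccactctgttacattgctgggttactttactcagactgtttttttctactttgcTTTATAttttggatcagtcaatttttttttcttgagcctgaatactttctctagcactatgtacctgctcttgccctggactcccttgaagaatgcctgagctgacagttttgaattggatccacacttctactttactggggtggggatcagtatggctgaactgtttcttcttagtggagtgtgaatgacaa
In Gabrb1 and Gabrb2 the capitals are GCGCATGCGC, the palindrome bound by nuclear respiratory factor 1 (NRF1), a transcription factor of nuclear genes for mitochondrial proteins that has also been described as a regulator of the beta1 gene in rat neurons. They are the longest palindrome that both beta stretches hold and were searched after the stretches had been read, and 0.762% of 33469 promoters of that length hold them. Of the 6 subunit promoters, those of Gabra3, Gabra4, Gabra5 and Gabrg1 do not hold them. Gabrb1 and Gabrb2, from which the letters were taken, are among the 14 genes of 100 kb or more that hold them. Of the 12 others 6 fell and 0 rose, with a median change of -0.29, against 450 that fell of 1318 without the letters (34.1%) and a median of -0.13. That difference was not tested. Among genes of any span with a promoter in the table, 9.68% of 155 with the letters fell, against 9.43% of 11795 without them.

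In Gabra3 the capitals are the letters TATAAA read on the other strand, which 12.9% of promoters hold on either strand, and its stretch has 0 CpG dinucleotides where the median of all promoters is 5. Gabra4 and Gabra5, at 33 and 37 CpG dinucleotides, have more than 96.4% and 98.1% of promoters, and each holds a GC box (GGGCGG, in 30.5% of promoters). Neither the cyclic AMP response element TGACGTCA (1.59% of promoters) nor the Egr letters GCGTGGGCG (0.478%) occur in the 6 stretches. All motifs were searched on both strands, and no 2 of them overlap in the 6 stretches. A match is a description of letters and not of binding.

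Among the 9 other GABA-A subunit genes described here, 1 fell (Gabrg3) and 1 rose (Gabrr1), beside 9.35% and 11.3% of all genes. The median change was -0.05. Gabrr1, a rho subunit gene known from the retina, read 6.24, 6.09 and 6.07 with camptothecin and 5.71, 5.53 and 5.94 with DMSO (change 0.40, SE 0.11, adjusted p = 0.05 after rounding, just inside the threshold). It lay below the median of all cluster means, as did 7 of these 9 genes, and its call was lost with any array left out other than DMSO replicate 3. The Gabrr1 call was also lost with arrays centred on medians (0.34, adjusted p = 0.0778) or on ribosomal protein genes (0.14, adjusted p = 0.402). A second quantile normalization ended it too (0.34, adjusted p = 0.0586).

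Genes around the receptor moved in both directions. Over the 7 pathway lists, 7 of 74 measured genes rose (9.46%) and 11 fell (14.9%), beside 11.3% and 9.35% of all genes. With ribosomal centring 0 of them rose and 27 fell, beside 2.28% and 32.2% of all genes. On the deposited scale, those that fell span 40.8 kb (Gad1) to 623 kb (Gabrg3), apart from Slitrk3 (12.5 kb). Those that rose span 3.32 kb (Gabarap) to 37.1 kb (Gabrr1). Of all genes of 30 to 100, 100 to 300 and 300 kb or more, 16.2%, 33.3% and 40.3% fell. Under 30 kb, 15.2% rose and 2.34% fell. The part of span in the pathway counts was not tested. Scaffold and trafficking genes rose in 4 of 22 and fell in 3, with a median of 0.10. Gabarap, a ubiquitin-like protein that binds GABA-A receptors and acts in autophagy, rose by 0.42 (SE 0.07, adjusted p = 0.00847), and by 0.16 without passing after ribosomal centring (adjusted p = 0.116). Plcl1, which binds GABARAP and receptor beta subunits in trafficking, changed by -0.81 (SE 0.10), Iqsec3, a gephyrin-binding exchange factor of inhibitory synapses, by -0.48 (SE 0.09) and Slitrk3, a postsynaptic adhesion protein of inhibitory synapses, by -0.42 (SE 0.07). The call of Iqsec3 was lost without DMSO replicate 1 or DMSO replicate 2 (adjusted p up to 0.0515). Gphn, the gephyrin scaffold itself, read 10.52, 10.62 and 10.55 with camptothecin and 10.74, 10.66 and 10.54 with DMSO, which overlap (change -0.08, 95% interval -0.26 to 0.10, and -0.35 with ribosomal centring, adjusted p = 0.0129), and was named after its value was seen.

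In GABA synthesis and transport 2 of 7 fell and 0 rose, beside 9.35% and 11.3% of all genes, with a median of 0.21. Both falls were the glutamate decarboxylases that make GABA, Gad2 (-0.99) and Gad1 (-0.57), and both are also inhibitory interneuron markers. The vesicular GABA transporter Slc32a1, named after its value was seen, had a change of 0.23 and did not pass (adjusted p = 0.0759), and its sign turned with ribosomal centring (-0.03). The largest change among the interneuron markers was that of Slc6a5, the glycine transporter of glycinergic neurons, at -1.79 (SE 0.11, adjusted p = 0.000142).

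Chloride handling genes, some of which help set the direction of current through these receptors, fell in 3 of 11 and rose in 0. The shares of all genes were 9.35% and 11.3%, and the list median was 0.04. The 3 that fell span 68.2 to 91.0 kb, and 16.2% of all genes of 30 to 100 kb fell. Slc12a2, the cotransporter that loads embryonic neurons with chloride, read 9.91, 9.93 and 10.04 with camptothecin, against 10.26, 10.28 and 10.30 with DMSO (change -0.32, SE 0.07, adjusted p = 0.0189). Its call was kept only without camptothecin replicate 2 or 3 when an array was left out (adjusted p up to 0.0684). Oxsr1, a kinase that activates this transporter, changed by -0.76 (SE 0.08, adjusted p = 0.00144), and the endosomal chloride exchanger gene Clcn3 by -0.40 (SE 0.11, adjusted p = 0.0427). The Clcn3 call was kept only without camptothecin replicate 2 or DMSO replicate 3. Slc12a5, the neuronal chloride exporter, read 6.62, 6.89 and 6.77 with camptothecin and 6.49, 6.47 and 6.43 with DMSO. All its camptothecin values were higher, but it did not pass (0.30, adjusted p = 0.0509), and it was named after its value was seen. The change of Slc12a5 was 0.23 with arrays centred on medians (adjusted p = 0.117) and 0.04 with ribosomal centring (adjusted p = 0.711). It passed in some other settings, as without camptothecin replicate 1 (0.37, adjusted p = 0.0311).

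Calls among the related receptors are given beside the 11.3% of all genes that rose and the 9.35% that fell. Of 3 measured GABA-B receptor genes 1 fell, Kctd8 (-0.63, SE 0.09), an auxiliary subunit, while the receptor genes Gabbr1 (0.20) and Gabbr2 (-0.02) did not pass. Of 4 glycine receptor genes 1 fell, Glra1 (-1.45, SE 0.12), with a list median of -0.19. Of 18 nicotinic and serotonin type 3 subunit genes 2 rose, Chrna5 (0.47, SE 0.07) and Chrna3 (0.33, SE 0.07), and 0 fell, with a median of 0.01. Of these 18 genes, 12 lay below the median of all cluster means. The Chrna3 call was kept only without camptothecin replicate 1 or DMSO replicate 2 when an array was left out (adjusted p up to 0.0738). It was also lost with arrays centred on medians (0.27, adjusted p = 0.0673). With ribosomal centring neither Chrna5 (0.20, adjusted p = 0.0534) nor Chrna3 (0.07, adjusted p = 0.462) passed.

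**Figure D5:**
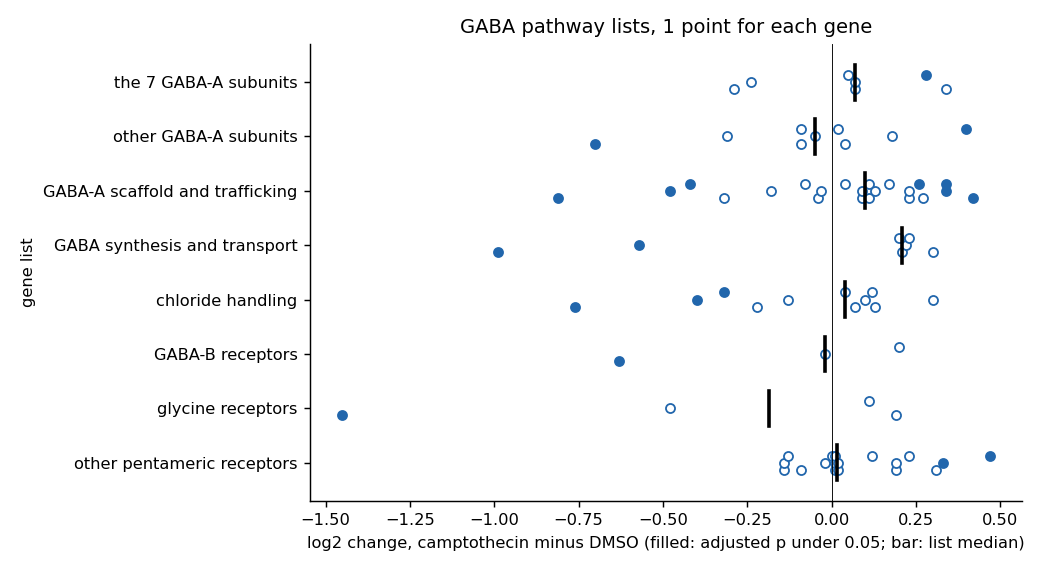
Log2 change, camptothecin minus DMSO, of each gene in the GABA-A subunit set and the 7 pathway lists (points, filled where adjusted p was under 0.05), with list medians as bars. The 7 subunit genes lie between -0.29 and 0.34, while Glra1 and Gad2 lie lowest at -1.45 and -0.99.

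Markers of other cells are given for the same arrays, beside 11.3% of all genes that rose and 9.35% that fell. Excitatory and sensory neuron markers fell in 1 of 7 (Slc17a6, -0.80), and progenitor and astroglial markers rose in 1 of 11 (S100b, 0.34) and fell in 1 (Pax6, -0.58). Endothelial, blood and microglial markers rose in 1 of 12, which was Cd68 (0.86), a lysosomal protein of macrophages. Of the other microglial markers, Ptprc and Cx3cr1 lay at 5.86 and 5.82 with camptothecin and 5.87 and 5.95 with DMSO, under the median of all cluster means. Aif1 and Csf1r lay above it, with changes of 0.25 (adjusted p = 0.102, all camptothecin values above all DMSO values) and 0.12 (adjusted p = 0.467). Oligodendrocyte and Schwann markers fell in 1 of 6 (Mbp, -0.48), fibroblast markers in 1 of 8 (Fn1, -0.36), and skeletal muscle markers rose in 1 of 7 (Acta1, 0.32). Among motor neuron markers 3 of 12 rose, with Nefh (0.59) and Nefm (0.42) the largest, and 1 fell (Foxp1, -0.34). All 3 that rose span under 30 kb, a bin in which 15.2% of genes rose. When an array was left out, the calls of S100b and Acta1 were kept only without camptothecin replicate 1 (adjusted p up to 0.129 and 0.0918), that of Fn1 was lost without DMSO replicate 2 or 3 (up to 0.0623), and that of Foxp1 was kept only without camptothecin replicate 2 (up to 0.0938). With ribosomal centring Nefm (0.15, adjusted p = 0.123), S100b (0.08, adjusted p = 0.564) and Acta1 (0.05, adjusted p = 0.508) did not pass. Median centring also ended the calls of S100b (0.28, adjusted p = 0.0894) and Acta1 (0.25, adjusted p = 0.0713). Mbp has 2 clusters, and their mean changed by -0.20 without passing (adjusted p = 0.108). The part of these cells in the subunit values was not tested.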

How the data were processed

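The deposited table holds log2 values for 29214 transcript clusters on 6 arrays, made by the authors with RMA and oligo, per the submitters' processing notes. Versions, probe annotation and genome build: not given in the sources used here. By the platform annotation 15310 clusters have 1 symbol, 323 several and 13581 none. Where a gene has several clusters, the one brightest on average was used.

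The deposited log2 values went into limma 3.58.1 (lmFit and eBayes, R 4.3.3) without further normalization, camptothecin minus DMSO. Tests were two-sided, p-values were adjusted by Benjamini-Hochberg over the whole table, and 0.05 was the threshold. Intervals are 95% intervals of the moderated fit. Rose and fell are used only past the threshold. The fit was tested on simulated data. Array number limits the precision.

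Members, gene lists and alternatives were chosen with earlier results of these data known. Named genes are all members, up to 4 called genes of each pathway list and 2 of each marker list with the largest change, or else the 1 with the largest change, and 3 nearest profiles. Other genes named were chosen after their values were seen. Spans came from GRCr8 for 14480 genes and serve as a description, as do promoters. Array pairs of a treatment shared 19 to 34 exactly equal values, so none was a copy. The 17 alternatives covered scaling, filters, variance models, thresholds, the replicate block and leaving out arrays.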

Additional observations from a re-analysis of the deposited data

How the results depend on the processing

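The number of subunit genes that rose was 1, and 0 with either centring, the replicate block, a threshold of 0.01 or treat against 1.2-fold, 2 without dim clusters, and 0 to 1 with an array left out. The number that fell was 0, and 1 with array weights, only clusters with 1 symbol or the mean over clusters, 2 with arrays centred on medians, without dim clusters or with trend and robust, and 3 with ribosomal centring. Leaving out arrays gave 0 in each fit. The median change of the 7 genes, 0.07, became 0.00 with arrays centred on medians and -0.20 with ribosomal centring, which also shifted the median of all genes by -0.07 and -0.26. Gabra2 turned to -0.02 and -0.21, and ranged from 0.00 (just below 0, without camptothecin replicate 3) to 0.09 with an array left out. The sign also turned for Gabra4, to 0.00 (just below 0) and -0.20, and for Gabra5, to -0.20 with ribosomal centring. Pathway genes that rose numbered 7, and 3 with arrays centred on medians, 0 with ribosomal centring, 12 without dim clusters, 13 with trend and robust, 11 with 1-symbol clusters or the mean over clusters, 2 with the replicate block or a threshold of 0.01, 0 with treat, and 2 to 6 with an array left out (4 or fewer for each array other than camptothecin replicate 1). Those that fell numbered 11, and 27 with ribosomal centring, 6 with treat and 8 to 12 with an array left out. Stricter thresholds, fewer clusters tested and fewer arrays act by construction, and the cause of the other shifts was not tested. The block does not rest on a pairing: deviations of same-numbered samples correlated at -0.084, 0.022 and 0.085. With it Gabra3 had an adjusted p of 0.0876. The 28 other genes named by the rule kept their direction in all 475 values, 76 of which lost the call and 17 gained it. Of 218 values of the 13 genes named after their values were seen, 17 gained the call, 7 lost it (all of Foxp1) and 10 turned sign. With ribosomal centring these were Aif1 (-0.02), Csf1r (-0.14), Gabbr1 (-0.06), Nefl (-0.13) and Slc32a1 (-0.03), and with a second quantile normalization Gabbr2 (0.00, just above 0). With an array left out Gabbr2 ranged from -0.06 to 0.01 and Ptprc from -0.05 to 0.05. Gphn fell with ribosomal centring (-0.35, adjusted p = 0.0129). All genes that rose numbered 1643, and 441 at 0.01, 166 with treat, 331 with ribosomal centring, 913 with arrays centred on medians, 892 with the block and 665 to 1348 with an array left out. Without dim clusters 28.2% of 8472 genes rose and 18.6% fell, with trend and robust 16.0% and 10.8% of all genes, with 1-symbol clusters 15.5% and 10.9%, with the mean over clusters 15.2% and 10.9%, and with array weights 12.8% and 10.5%, the background for the subunit counts under those settings. Those that fell numbered 1356, and 4672 (32.2%) with ribosomal centring, 1616 (11.1%) with arrays centred on medians, 814 at 0.01 and 511 with treat.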
